A study of Mus musculus with 24 samples.

Results

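Long-term haematopoietic stem cells (LT-HSCs) are the rare bone marrow cells that can rebuild all blood lineages for life. The 9 genes described here, Mecom, Hlf, Fgd5, Procr, Ctnnal1, Sult1a1, Mllt3, Robo4 and Tek, are known for RNA that is high in LT-HSCs and lower in the progenitors that they give rise to. They were picked out by gene name, with earlier results of these data known, and are 9 of the 38215 genes of the deposited table. All 9 were among the 15879 genes with enough counts to be tested. Their RNA was followed across all 24 libraries of sequenced polyadenylated RNA.

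The 24 libraries fall into 4 groups of 6, namely Jak2V617F pegIFN, Jak2V617F vehicle, wild-type pegIFN and wild-type vehicle. Jak2V617F is an activating mutation of the kinase JAK2, which signals for cytokine receptors and drives myeloproliferative neoplasms. All cells came from lethally irradiated (11 Gy) C57BL/6J recipients that carried both CD45.1 and CD45.2 and received marrow of both genotypes at equal shares. The Jak2V617F cells were CD45.2+ and came from Jak2 fl-V617F/+ donors with the Tg(E2A-cre) transgene, a Cre driver active from early development, and the wild-type cells were CD45.1+ and came from congenic Jak2+/+ Ptprc a donors. The genotypes therefore also differ in donor strain, and, by the sex-linked genes given below, in donor sex, so that mutation, strain and sex cannot be told apart. Mice were injected weekly with pegylated interferon alpha (pegIFN, 600 ng) or with vehicle (phosphate-buffered saline with bovine serum albumin) 5 times in 4 weeks. LT-HSCs were sorted as lineage-negative Sca1+ cKit+ CD150+ CD48- cells 48 hours after the last dose of pegIFN. The library names carry 12 mouse numbers, each found once per genotype, so that a library of both genotypes was taken to come from each mouse, 6 mice per treatment. The age of the animals is not given in the sources used here.

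Libraries held 24620821 to 39740656 expected counts each, and even the lowest value of a member, Sult1a1 in a Jak2V617F pegIFN library, rested on 13 counts. Levels are given as CPM, counts scaled to library size with TMM factors, and fold changes as log2 values ± SE. A gene was called where the Benjamini-Hochberg adjusted p of edgeR's quasi-likelihood test over all 15879 genes was under 0.05. RNA of the antigens used in the sort was present, with Ly6a (Sca1) at 263 ± 70.9, 53.2 ± 10.5, 228 ± 51.1 and 57 ± 11.3 CPM in Jak2V617F pegIFN, Jak2V617F vehicle, wild-type pegIFN and wild-type vehicle cells (SD, n = 6 each). Kit stood in the same 4 groups at 337 ± 68.9, 614 ± 105, 509 ± 58 and 929 ± 185 CPM. Cd48, whose product is gated out, was not at 0, with 33 ± 6.02, 12.4 ± 1.87, 26.3 ± 6.45 and 7.8 ± 2.7 CPM. Sex-linked RNA separated the genotypes. Xist, transcribed from the inactive X chromosome of females, was at 40.8 to 110.1 CPM in Jak2V617F pegIFN libraries other than replicate 1, at 3 to 54.9 CPM in Jak2V617F vehicle libraries, at 1801 to 2630.1 CPM in wild-type pegIFN libraries and at 1937 to 3310.2 CPM in wild-type vehicle libraries other than replicate 4. The sum of 4 Y-linked genes was 158 to 216, 189.9 to 243, 2.17 to 22.7 and 20.2 to 75.7 CPM in the same libraries. The 2 libraries set aside in these ranges went against the rest of their group, with 654 CPM of Xist and 149 CPM of the Y-linked genes in Jak2V617F pegIFN replicate 1 and 599.8 CPM and 249.6 CPM in wild-type vehicle replicate 4. Results are given with and without them where they bear on a member.

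The 9 genes have different jobs in the cell. Mecom, Hlf and Mllt3 encode nuclear proteins that set gene activity, Procr, Tek and Robo4 encode receptors at the cell surface, Fgd5 and Ctnnal1 encode proteins of GTPase signalling and cell adhesion, and Sult1a1 encodes an enzyme. LT-HSCs are mostly quiescent, and in mice type I interferon is known to bring them into cycle. The interferon receptor signals through the kinases JAK1 and TYK2, which leads to transcription of the interferon-stimulated genes.

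The first comparison asks what repeated pegIFN does to these genes in mutant and normal LT-HSCs. All 9 were lower after pegIFN in both genotypes. Since the set was chosen with earlier results known, the counts that follow are descriptions and not a neutral draw. The call was made for 9 of 9 members in Jak2V617F cells, where 22.3% of all tested genes were called lower and 21.7% higher (44% in either direction). It was made for 9 of 9 in wild-type cells, where 28.7% of all tested genes were called lower and 28.2% higher (56.8% in either direction). Over the members, the median change on the log2 scale was -1.38 in Jak2V617F and -1.90 in wild-type cells, beside medians of -0.01 and -0.01 over all tested genes. The size of the change differed widely between members, from -0.45 (Tek) to -3.53 (Sult1a1) in Jak2V617F cells and from -0.60 (Tek) to -4.14 (Sult1a1) in wild-type cells. Sult1a1, Fgd5 and Robo4 had the 3 lowest values in each genotype. As a check of the treatment, 12 of 12 interferon-stimulated genes rose in each genotype, among them Isg15 by 5.06 ± 0.11 on the log2 scale in Jak2V617F and 5.45 ± 0.12 in wild-type cells (edgeR adjusted p = 1.1e-21 and 4.6e-22).

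**Figure D1:**
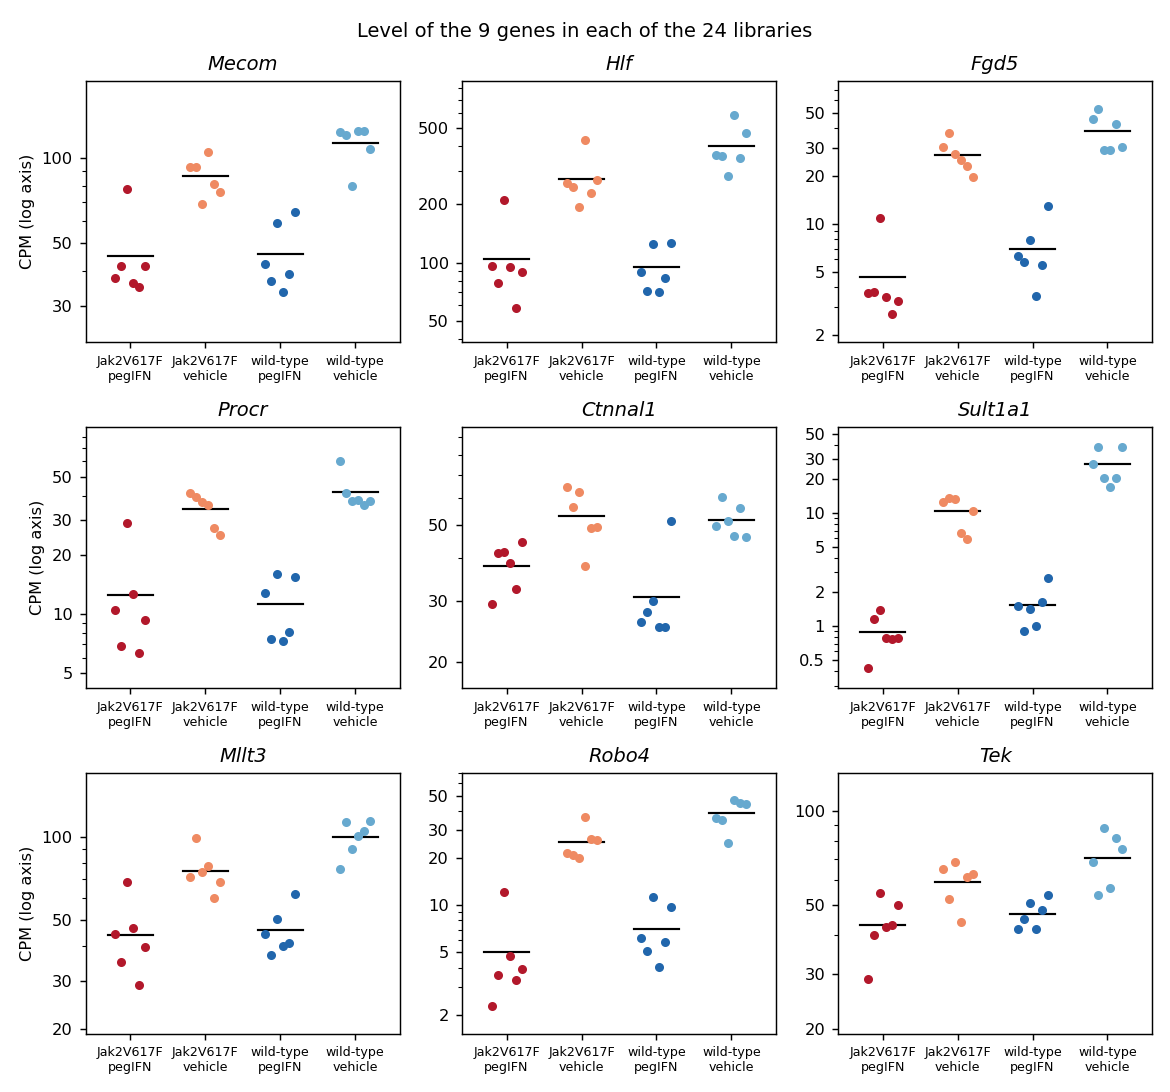
Level of each of the 9 genes in CPM (log axis) in the 6 libraries of Jak2V617F pegIFN, Jak2V617F vehicle, wild-type pegIFN and wild-type vehicle cells; each point is a library, drawn in order of replicate number, and the line is the mean. All 9 means are lower under pegIFN in both genotypes, and Sult1a1, with 0.893 against 10.4 CPM in Jak2V617F cells, has the widest gap.

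The promoters of Sult1a1, Fgd5 and Robo4, and of Mecom as a transcription factor with a smaller change, are shown because the genes moved together and the letters allow a search for binding motifs. Each is the stretch of 250 bases before an annotated start, 5′ to 3′ on the gene's strand, from RefSeq on GRCm38.p6, with motif matches in capitals.
Sult1a1, chr7:126676419-126676668, minus strand: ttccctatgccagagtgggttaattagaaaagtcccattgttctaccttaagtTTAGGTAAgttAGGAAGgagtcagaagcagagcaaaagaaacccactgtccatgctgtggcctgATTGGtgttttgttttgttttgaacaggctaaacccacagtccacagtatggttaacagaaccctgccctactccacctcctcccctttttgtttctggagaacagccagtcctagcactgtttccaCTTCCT
Fgd5, chr6:91978715-91978964, plus strand: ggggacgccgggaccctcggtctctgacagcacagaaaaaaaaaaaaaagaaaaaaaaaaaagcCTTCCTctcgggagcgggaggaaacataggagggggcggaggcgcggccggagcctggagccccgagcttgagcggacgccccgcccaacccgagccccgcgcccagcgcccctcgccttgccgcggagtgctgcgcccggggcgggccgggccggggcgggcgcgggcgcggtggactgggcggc
Robo4, chr9:37401722-37401971, plus strand: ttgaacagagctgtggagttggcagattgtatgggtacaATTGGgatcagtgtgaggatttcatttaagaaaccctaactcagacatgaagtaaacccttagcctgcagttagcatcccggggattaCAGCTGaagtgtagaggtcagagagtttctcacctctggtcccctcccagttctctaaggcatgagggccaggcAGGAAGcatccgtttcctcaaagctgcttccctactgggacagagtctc
Mecom, chr3:30509760-30510009, minus strand: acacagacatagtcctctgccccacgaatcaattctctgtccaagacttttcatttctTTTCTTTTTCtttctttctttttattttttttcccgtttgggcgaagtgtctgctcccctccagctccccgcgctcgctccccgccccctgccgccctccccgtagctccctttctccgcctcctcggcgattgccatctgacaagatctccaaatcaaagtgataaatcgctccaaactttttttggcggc

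All 9 genes had a window in the RefSeq table, 11 windows in all since Mecom and Mllt3 have 2 starts each, and 9 motifs were searched on both strands of the 300 bases from 250 before to 50 after the start. The ETS element AGGAAG, a letter string bound by factors such as ERG and PU.1, occurred in the windows of Sult1a1, Fgd5 and Robo4 and in no other member. It was thus in 3 of 11 member windows, and in 35.4% of all 32851 windows, so it is not particular to these genes. Sult1a1 holds the ETS element on both strands. It also holds a match to the PAR bZIP pattern TTANGTAA, where N is any base and is a G in this match. Of all windows, 2.32% hold that pattern. The interferon response element, GAAA and GAAA with any 2 bases between them, was found in 1 member, at the Mecom start shown, on the opposite strand and within a run of pyrimidines, and in 3.44% of all windows. The E-box CAGCTG was found at Procr, Mllt3 and Robo4 (16.3% of all windows), CCAAT in 5 windows of 4 genes (37.4%), the AP-1 element TGANTCA at Procr (7.81%) and the GATA element AGATAA at Tek (11.2%). The STAT element TTCNNNGAA (8.3% of all windows) and TATAAA (13.6%) were in no member window. None of these matches overlapped another in the stretches shown. The windows also differ in CpG content, with 0 CpG at Sult1a1, 2 at Robo4, 19 at the Mecom start shown and 37 at Fgd5, against a median of 7 over all windows. These matches are descriptions of letters, and binding was not measured.

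Among the nuclear regulators, Mecom (ENSMUSG00000027684, chromosome 3, 29951299 to 30548008, minus strand, GRCm38 here and below) encodes the zinc finger factor EVI1, which LT-HSCs need to persist. Its level was 34.9 to 77.8 CPM (median 39.6) in Jak2V617F pegIFN libraries, against 68.8 to 105 CPM (median 87) in Jak2V617F vehicle libraries. In wild-type cells the range was 33.5 to 64.3 CPM (median 40.6) under pegIFN, against 79.4 to 125 CPM (median 122) under vehicle. Wild-type groups did not overlap, while in Jak2V617F cells replicate 3 under pegIFN, at 77.8 CPM, lay among the vehicle libraries and the other 5 lay below them. The edgeR log2 fold change was -0.94 ± 0.19 (1.92-fold lower, adjusted p = 0.00041) in Jak2V617F and -1.31 ± 0.19 (2.48-fold lower, adjusted p = 5.0e-06) in wild-type cells. Hlf (ENSMUSG00000003949, chromosome 11, 90336536 to 90390895, minus strand) encodes a PAR bZIP transcription factor whose RNA marks HSCs. It was measured at 58 to 212 CPM (median 92.4) in Jak2V617F pegIFN libraries, against 194 to 432 CPM (median 253) in Jak2V617F vehicle libraries. Wild-type libraries ran over 70.2 to 127 CPM (median 86.6) under pegIFN, against 280.3 to 582 CPM (median 360.0) under vehicle. Again the wild-type groups were apart, and in Jak2V617F cells replicate 3 under pegIFN, at 212 CPM, exceeded the lowest vehicle library. In the edgeR fit it changed by -1.38 ± 0.27 (2.6-fold lower, adjusted p = 0.00031) in Jak2V617F and by -2.08 ± 0.27 (4.24-fold lower, adjusted p = 1.7e-06) in wild-type cells. Mllt3 (ENSMUSG00000028496, chromosome 4, 87769925 to 88033364, minus strand) encodes AF9, a reader of acylated histones in complexes that promote elongation, known in human HSCs as a regulator of their maintenance. It ran from 28.9 to 68.7 CPM (median 42) in Jak2V617F pegIFN libraries, against 59.99 to 98.7 CPM (median 72.8) in Jak2V617F vehicle libraries. The wild-type libraries held 37.3 to 61.7 CPM (median 42.8) under pegIFN, against 76.4 to 114 CPM (median 103) under vehicle. The wild-type groups did not overlap, and in Jak2V617F cells the overlap came from replicate 3 under pegIFN at 68.7 CPM. Its log2 fold change in edgeR came to -0.77 ± 0.16 (1.71-fold lower, adjusted p = 0.00061) in the mutant cells and -1.12 ± 0.16 (2.18-fold lower, adjusted p = 5.0e-06) in the wild-type cells.

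Partners of these regulators moved in both directions, as did the tested genes at large. Of all tested genes, 21.7% rose and 22.3% fell in Jak2V617F cells, and 28.2% rose and 28.7% fell in wild-type cells. Of 11 tested partners and targets of Mecom, 3 rose and 3 fell in Jak2V617F cells and 6 rose and 3 fell in wild-type cells. Suv39h1, a histone methyltransferase that binds EVI1, rose on the log2 scale by 0.21 ± 0.08 and 0.45 ± 0.08 in Jak2V617F and wild-type cells. Ctbp1, a co-repressor, rose in wild-type cells (log2 fold change 0.33 ± 0.06) and had a log2 fold change of 0.13 ± 0.06 in Jak2V617F cells (adjusted p = 0.079 in edgeR). Of 8 tested genes related to Hlf, 0 rose and 0 fell in Jak2V617F cells and 0 rose and 5 fell in wild-type cells, where Lmo2 had a log2 fold change of -0.25 ± 0.05, Cebpd -1.05 ± 0.29 and Bhlhe40 -0.52 ± 0.16. Of 15 tested elongation and DOT1L complex genes, 3 rose and 4 fell in Jak2V617F cells and 3 rose and 3 fell in wild-type cells. Mllt6 fell by 0.73 and 0.76 and Aff4, a scaffold of the elongation complex, by 0.44 and 0.50 on the log2 scale, while Mllt1, the paralogue of Mllt3, rose on the log2 scale by 0.20 ± 0.08 and 0.53 ± 0.08. The medians of the lists of Mecom, Hlf and Mllt3 were 0.07, -0.10 and 0.01 in Jak2V617F cells and 0.20, -0.37 and 0.02 in wild-type cells, beside -0.01 and -0.01 over all genes.

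Of the receptors, Procr (ENSMUSG00000027611, chromosome 2, 155751117 to 155755471, plus strand) encodes the endothelial protein C receptor, CD201, a surface marker of mouse HSCs. Its level was 6.3 to 29.1 CPM (median 9.91) in Jak2V617F pegIFN libraries, against 25.1 to 41.4 CPM (median 36.5) in Jak2V617F vehicle libraries. In wild-type cells the range was 7.29 to 16.1 CPM (median 10.4) under pegIFN, against 35.9 to 59.8 CPM (median 37.8) under vehicle. Only replicate 3 of the Jak2V617F pegIFN group, at 29.1 CPM, reached into the range of its vehicle group, and the wild-type groups did not overlap. The edgeR log2 fold change was -1.46 ± 0.30 (2.75-fold lower, adjusted p = 0.00053) in Jak2V617F and -1.90 ± 0.30 (3.72-fold lower, adjusted p = 1.9e-05) in wild-type cells. Robo4 (ENSMUSG00000032125, chromosome 9, 37401897 to 37414023, plus strand) encodes a roundabout receptor of endothelial cells and HSCs, with a part in the lodging of mouse HSCs in the marrow. It was measured at 2.27 to 12.1 CPM (median 3.76) in Jak2V617F pegIFN libraries, against 20.1 to 36.6 CPM (median 23.8) in Jak2V617F vehicle libraries. Wild-type libraries ran over 4.02 to 11.4 CPM (median 5.98) under pegIFN, against 24.8 to 46.7 CPM (median 40.1) under vehicle. The groups did not overlap in either genotype, although replicate 3 under pegIFN was the highest of its group in both, at 12.1 CPM in Jak2V617F and 11.4 CPM in wild-type cells. In the edgeR fit it changed by -2.33 ± 0.32 (5.02-fold lower, adjusted p = 9.0e-06) in Jak2V617F and by -2.45 ± 0.32 (5.46-fold lower, adjusted p = 1.4e-06) in wild-type cells. Tek (ENSMUSG00000006386, chromosome 4, 94739289 to 94874976, plus strand) encodes TIE2, the receptor of angiopoietins, known for a role in HSC quiescence. It ran from 28.9 to 54.4 CPM (median 42.6) in Jak2V617F pegIFN libraries, against 44.1 to 68.5 CPM (median 61.9) in Jak2V617F vehicle libraries. The wild-type libraries held 41.8 to 53.6 CPM (median 46.4) under pegIFN, against 53.6 to 88.3 CPM (median 72) under vehicle. The groups met in both genotypes, and the highest wild-type pegIFN library and the lowest wild-type vehicle library were both 53.6 CPM. Its log2 fold change in edgeR came to -0.45 ± 0.14 (1.37-fold lower, adjusted p = 0.0094) in the mutant cells and -0.60 ± 0.14 (1.51-fold lower, adjusted p = 0.00066) in the wild-type cells.

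Around these receptors, Angpt1, an angiopoietin that activates TIE2 and is made by HSCs themselves, averaged 417 ± 67.6 CPM under pegIFN against 584 ± 72.8 CPM under vehicle in Jak2V617F cells (SD, n = 6 each). It averaged 394 ± 53.2 CPM under pegIFN against 709 ± 92.9 CPM under vehicle in wild-type cells, and fell in both (log2 fold changes -0.48 ± 0.11 and -0.85 ± 0.11, edgeR adjusted p = 0.00094 and 6.8e-07). The co-receptor Tie1 fell by 0.64 and 0.89 on the log2 scale in Jak2V617F and wild-type cells, while the adaptor Dok2 rose on the log2 scale by 0.40 ± 0.12 and 0.68 ± 0.12. Of 5 tested genes of the TIE2 pathway, 1 rose and 4 fell in Jak2V617F cells and 1 rose and 3 fell in wild-type cells. Of 10 tested SLIT and ROBO genes and partners, 1 rose and 4 fell in Jak2V617F cells and 1 rose and 6 fell in wild-type cells. Robo1, a related receptor, fell by 2.20 and 2.29 on the log2 scale but from a low level, with 1.79 ± 0.542 and 2.71 ± 0.577 CPM in Jak2V617F and wild-type vehicle cells. Cxcr4, the receptor for the niche chemokine CXCL12, fell in wild-type cells (log2 fold change -0.68 ± 0.10, edgeR adjusted p = 5.6e-06) and had a log2 fold change of -0.17 ± 0.10 in Jak2V617F cells (adjusted p = 0.19). The small GTPase gene Arf6 rose on the log2 scale by 0.18 ± 0.05 and 0.25 ± 0.05.

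In the protein C pathway, 0 rose and 2 fell in Jak2V617F cells and 1 rose and 2 fell in wild-type cells, of 5 tested. S1pr1, a sphingosine phosphate receptor, fell by 0.90 and 0.58 and Thbd, which encodes thrombomodulin, by 0.59 and 0.58 on the log2 scale. F2r, the receptor PAR1 that EPCR-bound protein C can cleave, rose in wild-type cells (log2 fold change 0.58 ± 0.23, edgeR adjusted p = 0.035) and had a log2 fold change of 0.43 ± 0.23 in Jak2V617F cells (adjusted p = 0.13). RNA of Proc, the ligand itself, was at 0 in 3 of the groups and reached at most 0.0918 CPM in the Jak2V617F pegIFN group. Median log2 fold changes of the Tek, Robo4 and Procr lists were -0.64, -0.56 and -0.05 in Jak2V617F cells and -0.85, -0.85 and -0.14 in wild-type cells.

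Fgd5 (ENSMUSG00000034037, chromosome 6, 91978878 to 92076004, plus strand) encodes an exchange factor that activates the GTPase CDC42, and reporters in its locus mark mouse HSCs. Its level was 2.71 to 11 CPM (median 3.58) in Jak2V617F pegIFN libraries, against 19.6 to 37.3 CPM (median 26.5) in Jak2V617F vehicle libraries. In wild-type cells the range was 3.51 to 13 CPM (median 6.05) under pegIFN, against 29.1 to 52.9 CPM (median 36.8) under vehicle. The groups were apart in both genotypes, with replicate 3 the highest of the Jak2V617F pegIFN group at 11 CPM and replicate 6 the highest of the wild-type pegIFN group at 13 CPM. The edgeR log2 fold change was -2.55 ± 0.32 (5.84-fold lower, adjusted p = 2.9e-06) in Jak2V617F and -2.45 ± 0.31 (5.48-fold lower, adjusted p = 1.1e-06) in wild-type cells. Ctnnal1 (ENSMUSG00000038816, chromosome 4, 56810935 to 56865188, minus strand) encodes alpha-catulin, a relative of alpha-catenin that binds an exchange factor for small GTPases, and its reporter marks mouse HSCs. It was measured at 29.4 to 44.6 CPM (median 40.1) in Jak2V617F pegIFN libraries, against 38 to 64.2 CPM (median 52.9) in Jak2V617F vehicle libraries. Wild-type libraries ran over 25.2 to 51.1 CPM (median 27) under pegIFN, against 46.1 to 60.2 CPM (median 50.4) under vehicle. This gene overlapped in both genotypes: wild-type replicate 6 under pegIFN, at 51.1 CPM, stood inside the vehicle range while the other 5 were at or below 30.05 CPM. In the edgeR fit it changed by -0.48 ± 0.15 (1.4-fold lower, adjusted p = 0.014) in Jak2V617F and by -0.74 ± 0.15 (1.67-fold lower, adjusted p = 0.00029) in wild-type cells. Sult1a1 (ENSMUSG00000030711, chromosome 7, 126672865 to 126676432, minus strand) encodes a cytosolic sulfotransferase that conjugates phenolic compounds. It ran from 0.429 to 1.4 CPM (median 0.796) in Jak2V617F pegIFN libraries, against 5.93 to 13.7 CPM (median 11.5) in Jak2V617F vehicle libraries. The wild-type libraries held 0.909 to 2.69 CPM (median 1.47) under pegIFN, against 16.9 to 38.4 CPM (median 23.8) under vehicle. All pegIFN libraries lay below all vehicle libraries in both genotypes. Its log2 fold change in edgeR came to -3.53 ± 0.31 (11.6-fold lower, adjusted p = 6.4e-09) in the mutant cells and -4.14 ± 0.30 (17.6-fold lower, adjusted p = 1.6e-10) in the wild-type cells. In the order of all 15879 tested genes by fold change, it was number 26 from the lowest in Jak2V617F and number 19 in wild-type cells. Its annotation overlaps Ccdc101 on the opposite strand, which averaged 38.6 CPM over all libraries. Whether reads were counted by strand is not given in the sources used here, so reads of the pair may be shared, and 95.8% of its values were not whole numbers. Of the values of Mecom, 79.2% were not whole numbers.

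Of 12 tested FGD family members and CDC42 effectors, 1 rose and 4 fell in Jak2V617F cells and 0 rose and 4 fell in wild-type cells. Fgd4, a paralogue, fell by 1.29 and 1.64, the effector kinase gene Pak1 by 0.44 and 0.61, and Fgd1 by 0.67 and 0.68 on the log2 scale. Of 8 tested catenin and GTPase genes, 0 rose and 2 fell in Jak2V617F cells and 2 rose and 2 fell in wild-type cells. Akap13, the exchange factor that alpha-catulin binds, fell by 0.63 and 0.79 and Jup, which encodes plakoglobin, by 0.59 and 0.63, and Rhoa had a log2 fold change of 0.08 ± 0.06 and 0.15 ± 0.06 (edgeR adjusted p = 0.27 and 0.019). Among 6 tested sulfation genes, 0 rose and 1 fell in Jak2V617F cells and 0 rose and 2 fell in wild-type cells. Papss1, which makes the sulfate donor, fell by 0.21 and 0.23 on the log2 scale, Slc35b3, a transporter of that donor, had a log2 fold change of -0.16 ± 0.08 and -0.32 ± 0.08 (adjusted p = 0.11 and 0.0015), and Papss2 had a log2 fold change of 0.50 ± 0.28 and 0.18 ± 0.28 (adjusted p = 0.15 and 0.61). The medians of the Fgd5, Ctnnal1 and Sult1a1 lists lay between -0.11 and -0.02 in both genotypes, while the 3 members themselves had -0.48 or lower.

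**Figure D2:**
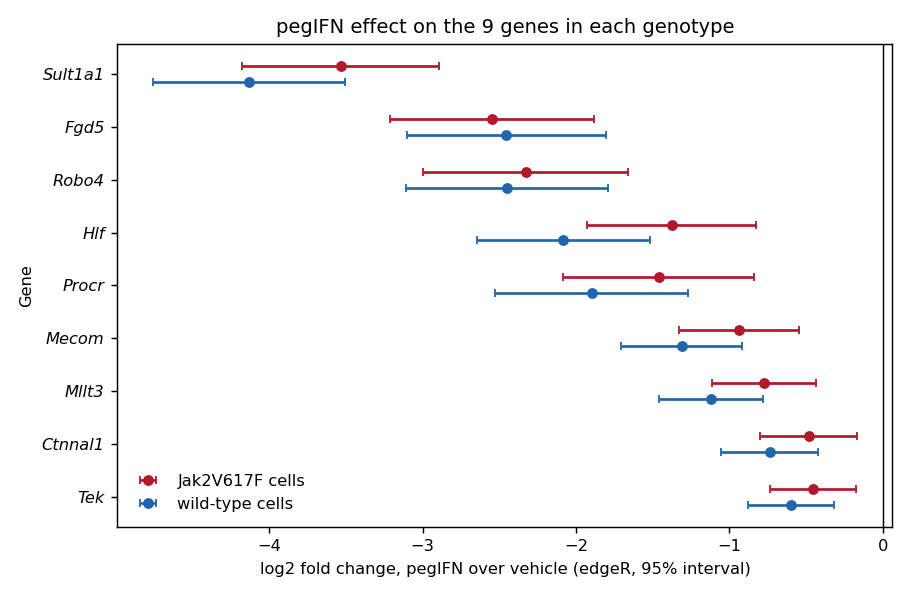
Log2 fold change of pegIFN over vehicle (x axis) for each gene (y axis, ordered by the wild-type value) with the 95% interval of the edgeR fit, Jak2V617F above wild-type. All 18 intervals lie below 0, with values from -4.14 for Sult1a1 to -0.45 for Tek.

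The groups did not overlap for 3 of 9 members in Jak2V617F cells (Fgd5, Sult1a1 and Robo4), where 8.58% of all tested genes were lower and 9.81% higher without overlap. They did not overlap for 7 of 9 in wild-type cells (all except Ctnnal1 and Tek), where the shares of all genes were 14.8% and 15.1%. Without the 2 libraries at odds with their groups on sex-linked genes, 9 of 9 and 9 of 9 were called. Each count also stayed at 9 with each library left out in turn. Upper-quartile scaling in place of TMM changed the split of all called genes, to 2678 higher and 4223 lower against 3446 and 3545 in Jak2V617F cells, and to 3495 and 5400 against 4474 and 4553 in wild-type cells. The 9 members were called lower under each scaling. In bulk RNA of sorted cells, fewer cells of a type and less RNA per cell cannot be told apart.

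Other genes known from LT-HSCs, also listed with earlier results of these data known, were counted beside the members. Of 30 tested, 1 rose and 20 fell in Jak2V617F cells and 2 rose and 20 fell in wild-type cells, with medians of -0.50 and -0.86. Jam2, a junctional adhesion molecule, fell by 2.57 and 2.76 and Meis1, a homeobox factor, by 0.17 and 0.60 on the log2 scale in Jak2V617F and wild-type cells. Ly6a, which encodes the gate antigen Sca1, went the other way, with log2 fold changes of 2.31 ± 0.20 and 2.00 ± 0.20 (edgeR adjusted p = 7.7e-09 and 2.9e-08). Of the other gate antigens, Cd48 rose on the log2 scale by 1.42 ± 0.19 and 1.76 ± 0.19, Kit fell by 0.87 and 0.87, Ptprc (CD45) fell by 0.52 and 0.66, and Slamf1 (CD150) had a log2 fold change of -0.01 ± 0.11 and -0.19 ± 0.11 (adjusted p = 0.94 and 0.15 in edgeR). The part of the gate in the members' change was not tested.

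Of 16 proliferation genes, 5 rose and 0 fell in Jak2V617F cells and 15 rose and 0 fell in wild-type cells, the opposite direction to the members. Mcm5, Mcm6 and Mcm2, subunits of the replicative helicase, rose on the log2 scale by 0.42 ± 0.09, 0.35 ± 0.07 and 0.42 ± 0.10 in Jak2V617F cells and by 0.65 ± 0.09, 0.50 ± 0.07 and 0.67 ± 0.10 in wild-type cells. The summed level of the list was 4782 to 5182 CPM in Jak2V617F pegIFN libraries, against 3553 to 4982 CPM in Jak2V617F vehicle libraries. It was 4444 to 4979 CPM in wild-type pegIFN libraries, against 2591 to 4257 CPM in wild-type vehicle libraries, where the groups did not overlap. Their part in the members' change was not tested.

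Markers of other cells that a gate could hold were measured beside the members. Of 15 progenitor markers, 1 rose and 4 fell in Jak2V617F cells and 1 rose and 4 fell in wild-type cells. Cd34 fell by 1.02 and 1.40, Cd27 by 1.14 and 1.36 on the log2 scale, and Cd48 rose as given above. Their sum was 828 to 1262, 562 to 1957, 335 to 584 and 619 to 997 CPM in Jak2V617F pegIFN, Jak2V617F vehicle, wild-type pegIFN and wild-type vehicle libraries. Several members are also known from endothelial cells, and 0 rose and 6 fell in Jak2V617F and 2 rose and 5 fell in wild-type cells among 11 tested endothelial markers, which include Tie1. Their sum was 381 to 528, 486 to 619, 464 to 524 and 546 to 709 CPM in the same order, carried mostly by Eng, Tie1 and Pecam1, which LT-HSCs also express. Cdh5, the defining cadherin, was at 0.305 CPM or less in the Jak2V617F pegIFN libraries, 0.0994 to 12.8 CPM in Jak2V617F vehicle libraries and 0.256 CPM or less in both wild-type groups. Sox18 and Emcn, both from low levels, fell by 3.04 and 2.15 in Jak2V617F cells and by 2.99 and 2.17 in wild-type cells on the log2 scale. Plvap and Flt1, also at low levels, were the 2 that rose in wild-type cells. Their log2 fold changes there were 2.07 ± 0.44 and 1.21 ± 0.47 (edgeR adjusted p = 0.00038 and 0.032). In Jak2V617F cells the values of Plvap and Flt1 were 0.23 ± 0.42 and -0.17 ± 0.42 (edgeR adjusted p = 0.70 and 0.77). Mmrn2 was at 0 in all Jak2V617F pegIFN and all wild-type vehicle libraries, and Sox17 at 0 in both wild-type groups.

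**Figure D3:**
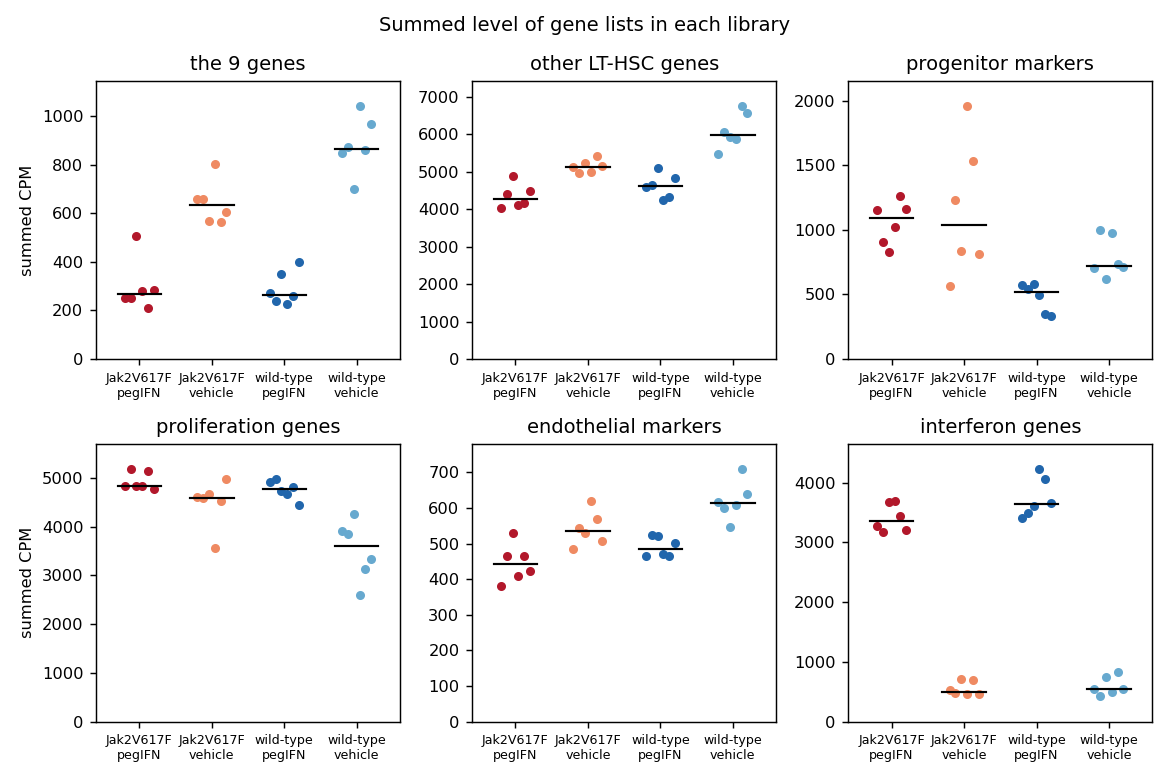
Summed CPM (y axis, from 0) of the 9 genes and of 5 gene lists in each library, for Jak2V617F pegIFN, Jak2V617F vehicle, wild-type pegIFN and wild-type vehicle cells; points are libraries and the line is the median. The 9 genes together lie at 210.4 to 508 CPM in Jak2V617F pegIFN against 565 to 801 CPM in Jak2V617F vehicle libraries, and proliferation genes are lowest in wild-type vehicle libraries.

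Levels were ordered between genes after division by the length that all annotated exons of a gene cover, as CPM per kb. Which transcripts the cells used was not taken into account, so the order is approximate. Hlf was the highest member in all 4 groups, at 15.7 ± 8.13, 40.7 ± 12.3, 14.1 ± 3.82 and 59.96 ± 16.2 CPM per kb in Jak2V617F pegIFN, Jak2V617F vehicle, wild-type pegIFN and wild-type vehicle cells (SD, n = 6 each). The order of the others depended on the group. In wild-type vehicle cells Procr followed at 20.6 ± 4.46, then Sult1a1 at 17.8 ± 6.24, Tek at 15 ± 2.94, Mecom at 9.13 ± 1.44, Mllt3 at 8.31 ± 1.19, Robo4 at 7.29 ± 1.57, Ctnnal1 at 6.73 ± 0.731 and Fgd5 at 6.1 ± 1.6 CPM per kb. Hlf stood apart, and below it only the step between Tek and Mecom was larger than the SD of both genes. Under pegIFN Sult1a1 was the lowest member in both genotypes, at 0.593 ± 0.226 in Jak2V617F and 1.01 ± 0.424 CPM per kb in wild-type cells, whereas it was number 6 of 9 in Jak2V617F vehicle and number 3 in wild-type vehicle cells. Tek, with the smallest change, was number 2 in both pegIFN groups, at 9.15 ± 1.87 and 9.92 ± 1.02 CPM per kb in Jak2V617F and wild-type cells.

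The members differed from library to library within the groups. With each gene's log2 CPM expressed in SD units from its mean over the 24 libraries, the mean of the 9 genes was -1.33 to 0.07 in Jak2V617F pegIFN libraries, against 0.43 to 0.79 in Jak2V617F vehicle libraries. It was -1.24 to -0.07 in wild-type pegIFN libraries, against 0.91 to 1.19 in wild-type vehicle libraries. The highest Jak2V617F pegIFN library was replicate 3, with all 9 genes above their group mean, by 0.15 to 1.48 on the log2 scale. The highest wild-type pegIFN library was replicate 6, with all 9 above their group mean, by 0.20 to 1.00. These came from different mice. The wild-type library of the first of these mice, replicate 3, had 8 of 9 genes above their group mean, and the Jak2V617F library of the second, replicate 6, had 2 of 9. In all 12 vehicle libraries the 9 genes lay on both sides of their group mean, for example 4 of 9 above it in wild-type vehicle replicate 1 (-0.37 to 0.54) and 5 of 9 in Jak2V617F vehicle replicate 4 (-0.58 to 0.71). All 6 wild-type vehicle libraries held all 9 genes above their mean over the 24 libraries.

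**Figure D4:**
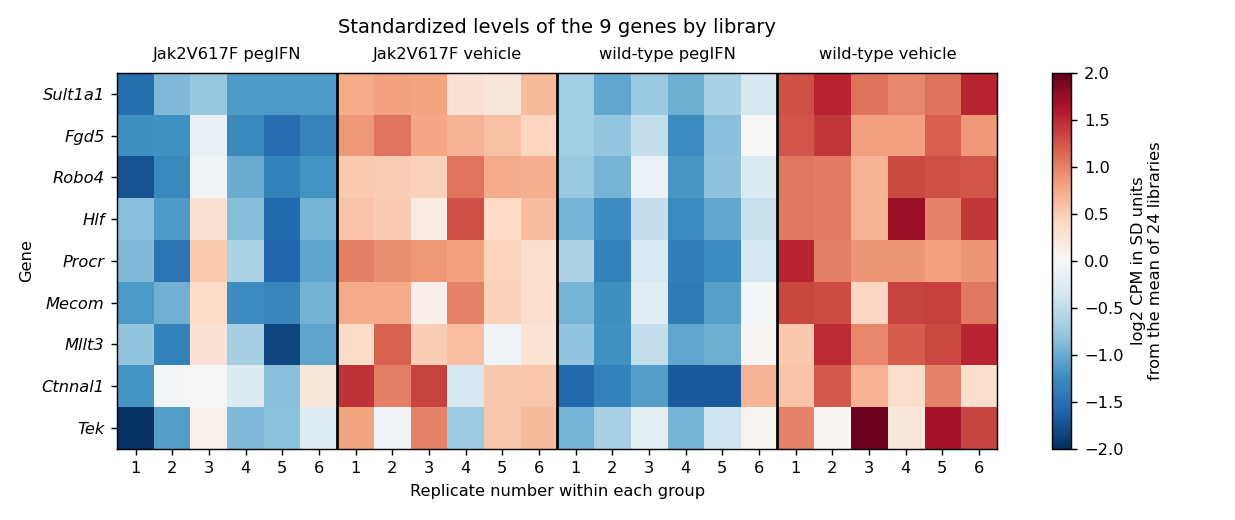
Standardized log2 CPM (colour, SD units from the mean of 24 libraries) of the 9 genes (rows) in each library (columns, by group and replicate). The Jak2V617F pegIFN library of replicate 3 is the palest of its group, with a mean of 0.07, while the other 5 lie between -1.33 and -0.85.

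The next comparison, Jak2V617F against wild-type LT-HSCs of vehicle mice, asks how the members differ between mutant and normal cells without pegIFN, with donor strain and donor sex differing too. Sult1a1 was lower in Jak2V617F cells, at 5.93 to 13.7 CPM (median 11.5) in Jak2V617F against 16.9 to 38.4 CPM (median 23.8) in wild-type libraries. The groups did not overlap, and the log2 fold change was -1.37 ± 0.26 (2.58-fold lower, edgeR adjusted p = 0.0031). It was the 1 member of 9 called, where 4.23% of all tested genes were called lower, 8.48% higher and 12.7% in either direction. Without overlap, 1.15% of all genes were lower and 1.76% higher. Upper-quartile scaling gave 1120 genes higher and 927 lower, against 1346 and 672 with TMM, and left the signs of the members in place. Without the libraries at odds on sex-linked genes Sult1a1 had -1.47 (edgeR adjusted p = 0.003).

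Both genotypes were sorted from each mouse, so the members can also be compared within mice. In vehicle mice 8 of 9 genes were lower in the Jak2V617F library than in the wild-type library of the same mouse in 6 of 6 mice, where 13.3% of all tested genes were lower and 15.4% higher in 6 of 6. Ctnnal1 was the exception, lower in 3 and higher in 3 mice. The ratio of Jak2V617F to wild-type CPM within a mouse ran from 0.274 to 0.649 for Sult1a1, from 0.59 to 0.81 for Robo4 and from 0.57 to 0.741 for Hlf. It came close to 1 in single mice for Procr (0.667 to 0.986), Tek (0.749 to 0.974) and Fgd5 (0.541 to 0.944). In edgeR with the mouse as a block, 6 of 9 members were called lower, where 13.6% of all tested genes were called lower, 17.5% higher and 31.1% in either direction. They were Mecom -0.39 ± 0.10 (adjusted p = 0.0075), Hlf -0.56 ± 0.14 (adjusted p = 0.011), Mllt3 -0.41 ± 0.13 (adjusted p = 0.036), Robo4 -0.61 ± 0.16 (adjusted p = 0.013), Tek -0.25 ± 0.07 (adjusted p = 0.0092) and Sult1a1 -1.37 ± 0.20 (adjusted p = 0.00023). With the block, Fgd5 had -0.48 ± 0.22 (edgeR adjusted p = 0.11), Procr -0.28 ± 0.17 (adjusted p = 0.25) and Ctnnal1 0.03 ± 0.10 (adjusted p = 0.85). Without the mice of the 2 libraries at odds on sex-linked genes, 5 of 9 were called lower with the block, Mllt3 not among them. The count of all genes called in that fit, in either direction, is given below with the processing. Without Jak2V617F pegIFN replicate 3, a library outside this contrast that enters the shared estimate of spread, Mllt3 was called in the fit with no block at -0.40 (edgeR adjusted p = 0.044).

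Of 16 proliferation genes, 10 were higher and 0 lower in Jak2V617F than in wild-type vehicle cells, and 16 were higher with the block. Mcm5 had a log2 fold change of 0.25 ± 0.09, Mcm6 0.13 ± 0.07 and Mcm2 0.19 ± 0.10 (edgeR adjusted p = 0.075, 0.22 and 0.2). Their summed level was 3553 to 4982 CPM in Jak2V617F against 2591 to 4257 CPM in wild-type vehicle libraries, and their part in the members' difference was not tested. Of the 30 other LT-HSC genes, 8 were lower and 0 higher in Jak2V617F cells, and with the block 16 lower and 1 higher, with medians of -0.31 and -0.32 beside -0.0052 and -0.0037 for all genes. Meis1 was lower (log2 fold change -0.27 ± 0.06, edgeR adjusted p = 0.0066), and Jam2 had a log2 fold change of -0.62 ± 0.26 (adjusted p = 0.12). Progenitor markers gave 2 calls higher and 0 lower among 15 (5 and 1 with the block), and endothelial markers higher in 2 and lower in 1 of 11.

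**Figure D5:**
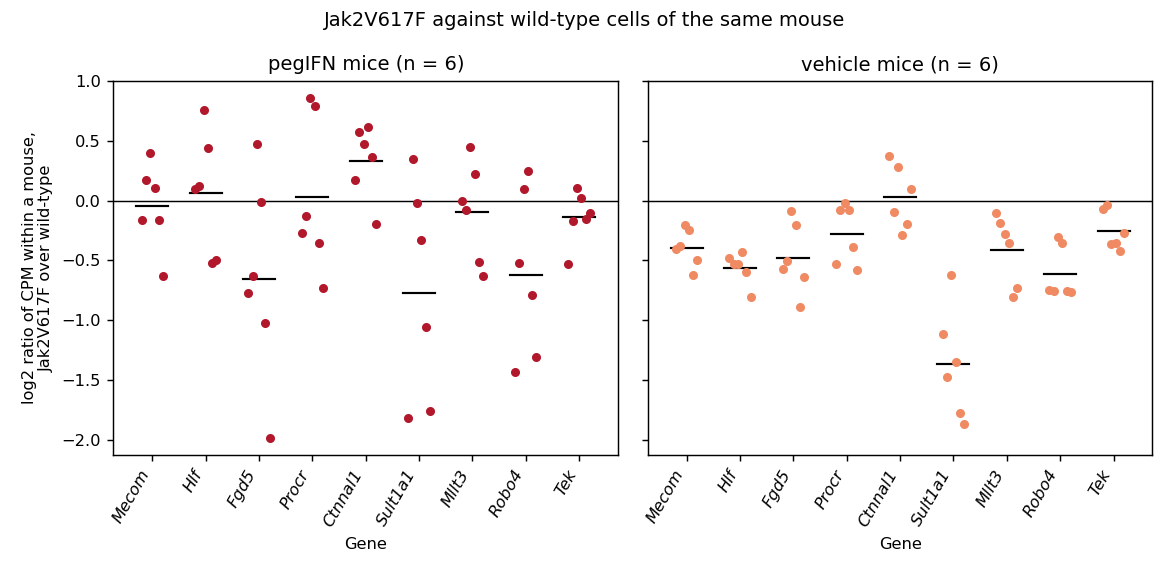
Log2 ratio of CPM, Jak2V617F over wild-type library of the same mouse (y axis), for each gene in pegIFN mice and in vehicle mice; points are the 6 mice and the line is their mean. In vehicle mice all points lie below 0 except 3 of Ctnnal1, while in pegIFN mice each of the 9 genes has points on both sides of 0.

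Under pegIFN the same contrast showed no shared direction with all libraries in the fit. This rests in part on Jak2V617F pegIFN replicate 3, as given below. No member was called in edgeR, against 8.59% of all tested genes (4.16% higher and 4.43% lower), with 1 of 9 at an unadjusted p under 0.05. DESeq2 called 0 and limma-voom, fitted with mouse as a random effect, 1. The count of all genes called by limma-voom is given below with the processing. Of the 54 pairs of a gene and a mouse, 32 were lower in the Jak2V617F library, against 51 of 54 in vehicle mice. Members moved together within some libraries, so these pairs are not independent and their counts are a description. None of the 9 was lower or higher in 6 of 6 mice, where 10.1% of all tested genes were lower and 12.8% higher. All 9 overlapped between the genotypes, where 1.65% of all genes were higher and 1.81% lower without overlap. The 3 genes with the lowest values were Sult1a1 at -0.76 ± 0.32 (edgeR adjusted p = 0.14, lower in 5 of 6 mice), Fgd5 at -0.59 ± 0.32 (adjusted p = 0.27, lower in 5 of 6) and Robo4 at -0.49 ± 0.32 (adjusted p = 0.37, lower in 4 of 6). Ctnnal1 had the highest value, 0.30 ± 0.15 (edgeR adjusted p = 0.24, higher in 5 of 6 mice). Intervals of the other 5 genes reached from -0.47 to 0.78, so that differences of up to that size were not resolved.

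With the mouse as a block, Ctnnal1 was called higher in Jak2V617F cells under pegIFN (0.33 ± 0.10, edgeR adjusted p = 0.031) and Robo4 lower (-0.59 ± 0.19, adjusted p = 0.043), where 13.3% and 11.3% of all tested genes were called higher and lower (24.6% in all). Ctnnal1 ran from 29.4 to 44.6 CPM (median 40.1) in Jak2V617F against 25.2 to 51.1 CPM (median 27) in wild-type pegIFN libraries. Single libraries decided part of this. Without Jak2V617F pegIFN replicate 3, in the fit with no block, Fgd5 had -1.05 (edgeR adjusted p = 0.0097) and Robo4 -0.99 (adjusted p = 0.013). In that fit Sult1a1 had -0.95, Procr -0.30, Mecom -0.26, Mllt3 -0.24, Tek -0.20 and Hlf -0.19, none of them called. All members except Ctnnal1 were thus lower in Jak2V617F cells without that library. Ctnnal1 stayed positive with each library left out in turn (0.24 to 0.49). Without wild-type pegIFN replicate 6, Ctnnal1 had 0.49 (edgeR adjusted p = 0.0083). With the block and without the mice of the 2 libraries at odds on sex-linked genes, 1 member was called, Ctnnal1 at 0.35 (edgeR adjusted p = 0.046). Progenitor markers stood higher in Jak2V617F cells in 5 of 15 tested under pegIFN, and their part in these differences was not tested.

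The last comparison asks whether the pegIFN effect itself differed between the genotypes. The difference, the effect in Jak2V617F cells minus the effect in wild-type cells, was positive for 8 of 9 members, a smaller decrease in Jak2V617F cells, and -0.09 for Fgd5. This count rests in part on Jak2V617F pegIFN replicate 3. Without it 6 of 9 were positive, with Procr at -0.027, Robo4 at -0.38 and Fgd5 at -0.56. The vehicle and pegIFN libraries are those of the preceding comparisons, so these values are not independent of them. No member was called in edgeR (0 at an unadjusted p under 0.05), in DESeq2 or with the mouse as a block, and 0% of all tested genes were called without the block and 3.33% with it (1.28% higher and 2.05% lower). The largest difference was that of Hlf, 0.71 ± 0.37 (95% interval -0.06 to 1.48, edgeR adjusted p = 0.62), and 0.63 ± 0.20 with the block (adjusted p = 0.11). With each library left out the value of Hlf ran from 0.36, without Jak2V617F pegIFN replicate 3, to 0.89, without Jak2V617F vehicle replicate 4. For Sult1a1 it was 0.60 ± 0.42 (95% interval -0.26 to 1.46, edgeR adjusted p = 0.71), and 0.42 without replicate 3 of the Jak2V617F pegIFN group. For the members with the smallest changes the intervals were -0.25 to 0.54 for Tek and -0.19 to 0.70 for Ctnnal1.

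The genes with the profile most like the mean of the 9 members over the 24 libraries were Abcg3, Fnbp1l, Plcl1, Fstl1 and Ghr, with root mean square differences of 0.183 to 0.203 SD units, among 12249 genes with a mean log2 CPM of at least 1. These points share treatment, genotype and mouse, and the likeness is a description. Ghr, the growth hormone receptor gene, had log2 fold changes of -1.51 and -1.62 in Jak2V617F and wild-type cells, and Abcg3, a transporter gene, -1.81 and -2.17. For single members the nearest gene was Gimap5 for Mecom (0.181 SD), Sgpl1 for Hlf (0.147), Hid1 for both Fgd5 (0.195) and Sult1a1 (0.237), and Arhgef3 for Procr (0.228). It was Ccdc112 for Mllt3 (0.253) and Zfp608 for Robo4 (0.178). Ctnnal1 and Tek had no such close match, with Ahi1 at 0.456 and Prkce at 0.444 SD units.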

How the data were processed

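Polyadenylated RNA of sorted LT-HSCs was sequenced in 24 libraries, single-end on a NextSeq per the labels' protocols. The deposited table holds expected counts per gene for GRCm38, and the submitters' processing notes name cutadapt 1.11, STAR 2.5.2a and RSEM 1.2.30; the annotation release and the strand setting are not given in the sources used here. Of the values, 16.8% were not whole, since reads shared by several genes are split among them, and counts were rounded before testing. No sample column of the table was left out.

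The filterByExpr filter, at a minimum count of 10, retained 15879 of 38215 genes. The tests were robust quasi-likelihood F tests in edgeR 4.0.16 (R 4.3.3) with TMM factors, 4 group means and no block, adjusted by Benjamini-Hochberg over all genes tested and called under 0.05. The SE is the log2 fold change divided by the square root of F. The common biological coefficient of variation was 18.6%. CPM used TMM-scaled library sizes, and standardized values a prior count of 2. Simulated counts with known changes were used to test the scripts.

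Mouse identity rests on the numbers in the library names. After group means were removed, libraries of the same mouse correlated at 0.119 to 0.416 (median 0.284), the own partner ranking first for 11 of 12, while libraries of different mice with the same replicate number had -0.239 to 0.0574. Since the mouse pairs the genotypes, blocked values are given where they change a call. By these numbers, replicates of a group are separate mice.

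The members and the gene lists were chosen with earlier results of these data known. Named beside the members were interferon genes, gate antigens, up to 3 genes per list with the smallest p in either pegIFN comparison, and nearest genes by profile. Genes named outside that rule, after their values were seen, were Eng, Pecam1, Cdh5, Sox17, Mmrn2, Plvap, Flt1, Proc, Alas2, Slc4a1 and Ccdc101. Xist was named as a check of the libraries. List genes were counted from the fit over all genes, and a few list members are not reported here by name. Alternatives were RLE and upper-quartile factors, other filters, DESeq2 1.42.0, limma-voom (limma 3.58.1), the groups compared alone, a mouse or replicate number block, and libraries left out. Of these, the fit without the pegIFN mouse of replicate 3 and the block without the mice of the 2 libraries at odds on sex-linked genes were added after the data were seen. Promoters came from RefSeq (GRCm38.p6), exon lengths and overlaps from GENCODE on GRCm38, while gene positions are those of the deposited table.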

Additional observations from a re-analysis of the deposited data

Results flagged for a closer look

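A gap test within each group of 6 libraries marked 5 of the 36 combinations of a gene and a group, where chance marks about 1 in 20. In each, 1 library stood far from the next. The ratio given is its gap to the nearest library divided by the range of the group, both taken on log2 CPM. The levels beside it are in CPM. Mecom in Jak2V617F pegIFN replicate 3 was the highest of its group at 77.8 CPM, with the next at 41.6 CPM (ratio 0.78). Fgd5 in the same library was at 11 CPM, with the next at 3.75 CPM (ratio 0.77). Ctnnal1 in wild-type pegIFN replicate 6 was at 51.1 CPM, with the next at 30.05 CPM (ratio 0.752). Mecom in wild-type vehicle replicate 3 was the lowest of its group at 79.4 CPM, with the next at 108 CPM (ratio 0.67). Procr in wild-type vehicle replicate 1 was the highest at 59.8 CPM, with the next at 41.5 CPM (ratio 0.713).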

How the results depend on the processing

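The counts of 9 of 9 members lower under pegIFN in each genotype stayed at 9 under every alternative run and with each library left out. For Jak2V617F against wild-type under pegIFN, the count of members called was 2 with the mouse as a block, 1 with limma-voom and the mouse as a random block, 2 without the pegIFN mouse of replicate 3 and 1 with the block and without both mice of the libraries at odds on sex-linked genes, against 0, and the count of all genes was 3910, 3909, 1413 and 2530, against 1364. It was 653 without the 2 libraries at odds on sex-linked genes and 487 without both their mice, which have fewer samples. For the same contrast under vehicle, members called were 2 with DESeq2 (with Mllt3), 2 with only the groups compared (with Robo4), 6 with the mouse block, 7 with limma-voom, 3 without the pegIFN mouse of replicate 3 and 5 with the block and without both mice, against 1. All genes called were 1152 with only the groups compared, 4944 with the block, 5297 with limma-voom, 999 without the pair and 3959 with the block and without both mice, against 2018. Counts of all genes with DESeq2 and without the pegIFN mouse of replicate 3 are not reported here. The members' counts in those fits therefore have no background beside them. The interaction called 46 genes with DESeq2, 528 with the block, 290 with limma-voom and 104 with the block and without both mice, against 0 of all genes, and 1338 at an unadjusted p under 0.05. A replicate number block changed no member's call under pegIFN against vehicle, nor did the mouse block in the interaction. The cause of these moves was not tested.

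Leaving out each library in turn gave 0 to 2 members and 593 to 2051 genes under pegIFN, 1 to 2 members and 929 to 2650 genes under vehicle and 0 to 36 genes in the interaction. The gene count under pegIFN moved by over 1.5 times without Jak2V617F pegIFN replicate 1, 3, 4 or 6 or wild-type pegIFN replicate 1, 2, 3, 4 or 5, and under vehicle without Jak2V617F vehicle replicate 1 or 3 or wild-type vehicle replicate 4, 5 or 6. The interaction count left 0 without Jak2V617F pegIFN replicate 1, Jak2V617F vehicle replicate 4, 5 or 6, or wild-type pegIFN replicate 3 or 6. No called member changed sign under these alternatives. Uncalled values of small size did: under pegIFN, Mecom was 0.019 without the pair, and Hlf -0.092 and Procr -0.17 without the mouse of replicate 3. In the interaction Robo4 was -0.0081 with limma-voom and -0.19 without that mouse, and Fgd5 0.036 without the pair. With each library left out the same contrasts ran from -0.26 to 0.084 for Mecom, -0.19 to 0.27 for Hlf, -0.30 to 0.29 for Procr and -0.24 to 0.032 for Mllt3 under pegIFN, -0.023 to 0.11 for Ctnnal1 under vehicle, and -0.56 to 0.17, -0.027 to 0.56 and -0.38 to 0.30 for Fgd5, Procr and Robo4 in the interaction. Depth limits Sult1a1 most, with 13 to 46.5 counts per Jak2V617F pegIFN library.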

Other observations

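Under pegIFN, of 12 erythroid markers 5 rose and 4 fell in Jak2V617F cells and 5 rose and 4 fell in wild-type cells. On the log2 scale Epor, the erythropoietin receptor gene, rose by 0.88 ± 0.10 and 1.29 ± 0.10, Gata1 by 0.91 ± 0.15 and 1.32 ± 0.15, and Klf1 by 1.44 ± 0.25 and 2.08 ± 0.25 in Jak2V617F and wild-type cells (largest edgeR adjusted p = 8.5e-05). The 4 that fell moved further than these 3, which were named for their p and were not the largest rises of the list. Among the 4, Alas2, a haem synthesis gene, had log2 fold changes of -2.88 ± 0.48 and -3.69 ± 0.49 in Jak2V617F and wild-type cells. Slc4a1, the red cell anion exchanger gene, had -4.90 ± 0.87 and -5.12 ± 0.83. Both stood at low levels, with an average log2 CPM of 0.97 for Alas2 and 1.91 for Slc4a1. The median of the list was -0.17 and -0.02. Its summed level ran over 857 to 1477, 872 to 1439, 1294 to 1882 and 915 to 1766 CPM in Jak2V617F pegIFN, Jak2V617F vehicle, wild-type pegIFN and wild-type vehicle libraries. Of 9 megakaryocyte markers, 1 rose and 2 fell in Jak2V617F cells and 3 rose and 2 fell in wild-type cells. Selp, the P-selectin gene, fell by 0.53 and 0.86 on the log2 scale. Gp5, a platelet glycoprotein gene, rose on the log2 scale by 0.61 ± 0.19 and 0.81 ± 0.19. Their sum was 1933 to 2575, 1278 to 2430.1, 1482 to 2323 and 1016 to 2118 CPM in the same groups.

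Of 11 markers of mature leukocytes, which the sort removes, 1 rose and 2 fell in Jak2V617F cells and 1 rose and 5 fell in wild-type cells. Klrb1c, a natural killer cell receptor gene at a low level (average log2 CPM -0.08), fell by 2.30 and 3.97 on the log2 scale. Nkg7 rose on the log2 scale by 0.86 ± 0.15 and 0.88 ± 0.15. Their sum was 321 to 695, 290.3 to 806, 180.4 to 393 and 229 to 479 CPM in Jak2V617F pegIFN, Jak2V617F vehicle, wild-type pegIFN and wild-type vehicle libraries. Under pegIFN, 7 of 11 were higher in Jak2V617F than in wild-type cells with the mouse as a block (edgeR), and 0 without it. Of all tested genes, 13.3% were called higher with the block and 4.16% without it.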
